A study of Mus musculus with 4 samples.

Results

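Caspases and the proteins that restrain them were described here through 8 genes: the caspase genes Casp6, Casp8 and Casp9, the apoptosome gene Apaf1, and the inhibitor of apoptosis (IAP) genes Birc2, Birc3, Birc6 and Xiap. The members were chosen by symbol, and the count table held each of them once among its 40481 genes. The table came from RNA sequencing of CD49a+ ILC1s (type 1 innate lymphoid cells) of the mouse. These are lymphocytes related to natural killer cells that stay in tissues such as the liver, which the labels name as the source of control library 1, and CD49a is an integrin by which they are recognised. All the mice had floxed Inpp4b alleles (Inpp4b flox/flox). The 2 control libraries, numbered 1 and 2, carried no further allele in their labels, and the 2 libraries labelled knockout, numbered 3 and 4, came from Ncr1-iCre Inpp4b flox/flox mice. Ncr1 encodes the receptor NKp46, and the Cre allele named after it acts in cells of the natural killer and ILC1 kind. The labels give no age and do not say whether libraries came from separate or pooled animals, and a p-value here covers only the spread between libraries, which may be technical. Presence of the Cre allele and loss of Inpp4b cannot be told apart. The series asks whether the phosphatase INPP4B sustains ILC1s through a survival pathway driven by AKT.

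Apoptosis is carried out by caspases, proteases that are made as inactive precursors. Death receptors at the cell surface activate caspase-8, and cytochrome c released from mitochondria binds APAF1 to form the apoptosome, which activates caspase-9. Both initiators cleave executioner caspases. XIAP binds and blocks active caspases, the cellular IAP proteins encoded by Birc2 and Birc3 are ubiquitin ligases that act mainly at tumour necrosis factor receptors, and BIRC6 is a very large ubiquitin-conjugating protein that targets caspases and their regulators for degradation. These genes are transcribed in most cell types, and caspase activity is controlled largely after translation, which RNA counts do not measure.

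The 3 caspases share the stretch of coding sequence around the catalytic cysteine, which is shown because it is the feature that makes them one family. Capitals mark the 5 codons around that cysteine, found in the GENCODE M21 transcripts of mm10. The cysteine codon lies at 129912121 to 129912123 of chromosome 3 in Casp6 (exon 6 of 7 of the transcript used), at 58844619 to 58844621 of chromosome 1 in Casp8 (exon 9 of 10) and at 141807253 to 141807255 of chromosome 4 in Casp9 (exon 6 of 9), all on the plus strand.
Casp6: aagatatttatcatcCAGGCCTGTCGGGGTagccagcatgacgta
Casp8: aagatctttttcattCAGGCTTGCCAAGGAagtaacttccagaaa
Casp9: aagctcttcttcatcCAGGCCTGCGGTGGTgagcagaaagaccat
The protein motif is common, but the bases around it differ between the genes. Over whole transcripts, the longest run of identical bases was 16 between Casp6 and Casp8 and 15 between Casp6 and Casp9. Casp8 and Casp9 had none of 15 or more. Neither run lies in the stretch shown, and the run of 16 is not wholly coding.

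Birc2 and Birc3 are a different case. They are neighbours on the minus strand of chromosome 9, at 7818227 to 7837064 and 7848699 to 7873186, with 11634 bases between them. Their transcripts share an exact coding run of 114 bases, which lies at 7821098 to 7821211 in Birc2 (exon 4 of 7) and at 7854491 to 7854604 in Birc3 (exon 6 of 9). It is shown because reads from wholly inside it cannot be assigned to either gene.
Birc2 and Birc3: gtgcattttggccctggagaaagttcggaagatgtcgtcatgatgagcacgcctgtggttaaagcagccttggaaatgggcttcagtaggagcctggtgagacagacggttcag
Of the distinct 50-base words in the transcripts, 1.49% of those of Birc2 and 7.56% of those of Birc3 also occurred in transcripts of other genes. For Birc3 this was mostly through Gm7019 and Birc2. These are shares of words and not of reads, so the resulting uncertainty of the Birc3 values is not known. The share was 4.37% for Casp8, through the pseudogene Gm20257, which had 168 to 645 counts per library against 8268 to 10402 for Casp8. It was 2.04% for Birc6 and under 1% for Casp6 (0.0182%), Casp9 (0.855%), Apaf1 (0.614%) and Xiap (0.888%). Birc6 also overlaps the antisense gene Gm26749 over 2.37% of its exon bases, where the antisense gene had 0 to 14 counts per library.

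Library totals ranged from 42380840 to 54878210 counts, and levels are given as CPM, counts scaled to a common library total after correction for composition with TMM factors. The targeted gene Inpp4b was at 78.7 and 106.5 CPM in the controls and 142.5 and 86.0 CPM in libraries 3 and 4, so its transcripts were not reduced (log2 fold change 0.30 ± 0.28 SE, adjusted p = 0.828 by edgeR). The table does not resolve exons, so this neither checks nor contradicts removal of part of the gene, and every direction below is that of libraries labelled knockout. The summed level of 12 ILC1 and natural killer cell markers, Ncr1 and Itga1 (CD49a) among them, was 13636 and 14441 CPM in the controls and 13677 and 14737 CPM in libraries 3 and 4. Within this sum Ncr1 itself was at 1673 and 1772 CPM in the controls and lower, without overlap, at 1202 and 1077 CPM in libraries 3 and 4 (log2 fold change -0.60, SE 0.14, edgeR adjusted p = 0.28). Of 14 myeloid and dendritic cell markers, a list that holds genes already known to be higher in these libraries, all 14 had positive fold changes and 10 passed the test, with sums of 424.5 and 524.9 CPM against 2417 and 3008 CPM, and 9 T cell markers summed to 2429 and 2398 CPM against 2926 and 3977 CPM. Of 8 tested T cell markers 7 had positive fold changes and 1 passed the test. The sum of 6 Kupffer cell markers was 11.4 and 12.7 CPM against 28.8 and 23.5 CPM. Sums of neutrophil markers did not overlap either but were at most 1.81 CPM. Those of B cell, hepatocyte, and endothelial and stellate markers overlapped. The myeloid, T cell and Kupffer cell sums therefore separate the groups, and their part in any result below was not tested. A lower level in such bulk libraries cannot be told apart from fewer cells that express the gene.

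All 8 genes passed the filter on low counts, with 478 to 14817 counts per library, so that counting error was at most 4.57% for any value. At an edgeR adjusted p under 0.05 (quasi-likelihood test over 14863 genes), 0 of the 8 differed, and 0.141% of all tested genes were called higher and 0.0135% lower. By the unadjusted p of edgeR, under 0.05, 0 members were higher and 1 was lower, Birc6, against 4.48% and 5.17% of all tested genes. DESeq2 called the same 1 member lower and 0 higher, against 1.34% and 1.83% of the genes to which it gave an adjusted p. The members split evenly in sign, 4 positive and 4 negative, with a median log2 fold change of -0.02 beside -0.01 over all tested genes. The groups did not overlap for 1 member that was higher (Xiap) and 1 that was lower (Birc6), while 19.5% of tested genes lay wholly higher and 20.8% wholly lower. For 6 of the 8 the larger of the differences between 2 libraries of the same group exceeded the difference between groups. Birc2 (0.272 against -0.262) and Xiap (0.265 against 0.270) lay close to either side of this limit on the log2 scale. The share of all tested genes for which this held was not counted, so the count is not read as a trait of the members.

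**Figure D1:**
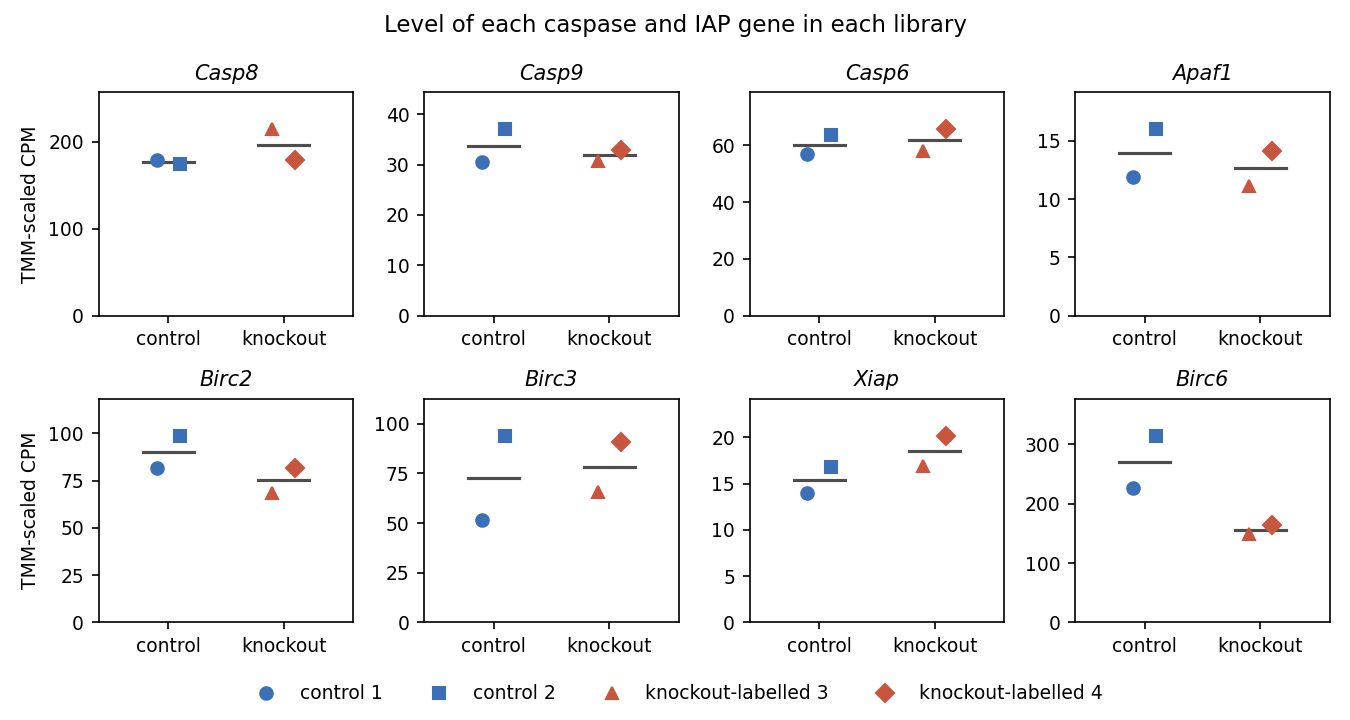
TMM-scaled CPM of each of the 8 genes (vertical axis from 0, scaled per gene) in control libraries 1 and 2 (blue) and libraries 3 and 4, labelled knockout (red), with the mean of each group as a line. Birc6 is the gene whose groups stand furthest apart, at 226.1 and 313.6 CPM against 149.4 and 163.5 CPM, and Birc3 differs most within the controls.

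The initiator of the death receptor route, Casp8, was the most abundant caspase and nearly the same in 3 of the 4 libraries. It was at 179.4 and 175.0 CPM in the controls, at 214.6 CPM in library 3 and at 179.4 CPM in library 4. Library 3 alone stood higher, and the value of library 4 fell between those of the controls. This gave a log2 fold change of 0.15 (SE 0.15, 95% interval -0.21 to 0.52, edgeR adjusted p = 0.848).

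Casp9, the initiator of the mitochondrial route, was at 30.5 and 37.0 CPM in the controls and 30.7 and 32.9 CPM in libraries 3 and 4. Both libraries labelled knockout lay inside the range of the controls. The log2 fold change was -0.09 (SE 0.23, 95% interval -0.63 to 0.46, edgeR adjusted p = 0.973). Its activating partner Apaf1 (chromosome 10, 90989311 to 91082770, minus strand) was at 11.9 and 16.002 CPM against 11.1 and 14.2 CPM. Libraries 1 and 3 were low and libraries 2 and 4 high, so the spread lay within the groups rather than between them. Apaf1 had a log2 fold change of -0.14 (SE 0.32, 95% interval -0.92 to 0.64, edgeR adjusted p = 0.965). Set per kilobase of exon, the Apaf1 level was 0.22 and 0.25 of that of Casp9 in the controls and 0.21 and 0.25 in libraries 3 and 4.

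Casp6, an executioner caspase that cleaves nuclear lamins, showed the smallest difference of the 8 genes. It was at 56.8 and 63.8 CPM in the controls and 58.0 and 65.7 CPM in libraries 3 and 4. The groups overlapped, and each held a lower and a higher library. Its log2 fold change was 0.04 (SE 0.18, 95% interval -0.40 to 0.47, edgeR adjusted p = 0.99). The median over the 3 caspases was likewise 0.04, with a range of -0.09 to 0.15. The widest of their intervals ran from -0.63 to 0.46, so equal levels were not shown.

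Birc6, the largest of the IAP genes (chromosome 17, 74528295 to 74703356, plus strand), was the member with the lowest values in the libraries labelled knockout relative to controls. It was at 226.1 and 313.6 CPM in the controls and 149.4 and 163.5 CPM in libraries 3 and 4. Both libraries labelled knockout lay below both controls, and control library 2 was the highest. Means were 269.8 ± 61.9 CPM in the controls and 156 ± 9.94 CPM in libraries 3 and 4 (SD, n = 2 in each), and the controls were 1.72-fold higher by the fit. Birc6 had a log2 fold change of -0.79 (SE 0.19, 95% interval -1.25 to -0.33). The unadjusted p of edgeR was 0.00554 and did not pass after adjustment (edgeR adjusted p = 0.302), while DESeq2 gave -0.77 and an adjusted p of 0.0345.

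The 2 fits that called Birc6 both left out the filter on low counts applied here, as DESeq2 was run with its own filtering. DESeq2 also uses another test and was not run on the filtered genes, so filter and test cannot be told apart for its call. On the same 14863 genes as edgeR, limma-voom gave Birc6 -0.76 and an adjusted p of 0.286. Without any filter on low counts, edgeR tested 23999 genes, called 264 lower and 299 higher, and gave Birc6 an adjusted p of 0.00121. The log2 fold change was negative under all 14 alternatives, from -1.004 without control library 1 to -0.53 without control library 2 among those that left out a library. Its size fell most when a trend with gene length was removed.

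**Figure D2:**
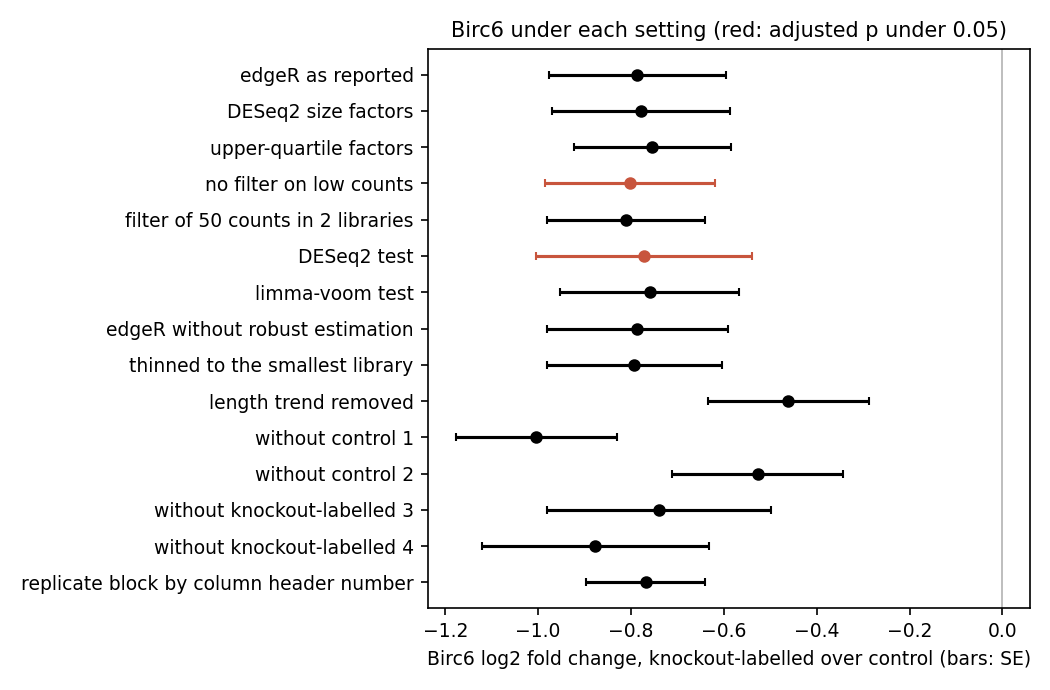
Log2 fold change of Birc6 (horizontal axis, bars are the SE of each fit) in the edgeR fit as reported and under each of 14 alternatives, with red marking an adjusted p under 0.05. The points lie between -1.004 and -0.46, and 2 alternatives, DESeq2 and no filter on low counts, pass the threshold.

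Length moved with the fold change across the table. Birc6 has 25772 bases of merged exons, and only 27 of the 14853 tested genes with a known length are longer. When those genes were split into 10 groups by exon length, the median log2 fold change first rose, from -0.066 in the shortest group (up to 694 bases) to 0.054 in the next and 0.11 in the third (1453 to 2197 bases). From there it declined with length to -0.17 in the longest group (9034 bases or more). Negative values were held by 55.05% of genes in the shortest group, 40.8% in the third and 66.4% in the longest. Among 306 genes with at least 15000 exon bases the median was -0.29, and 74.2% were negative. In the longest group, 10.9% of the genes had a more negative value than Birc6. With the length trend of each library removed, its log2 fold change was -0.46 (SE 0.17, edgeR unadjusted p = 0.04, adjusted p = 0.509). The length trend also differed between the controls: in the longest group control 2 exceeded control 1 by a median of 0.13 on the log2 scale, and in the shortest this median was -0.30.

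**Figure D3:**
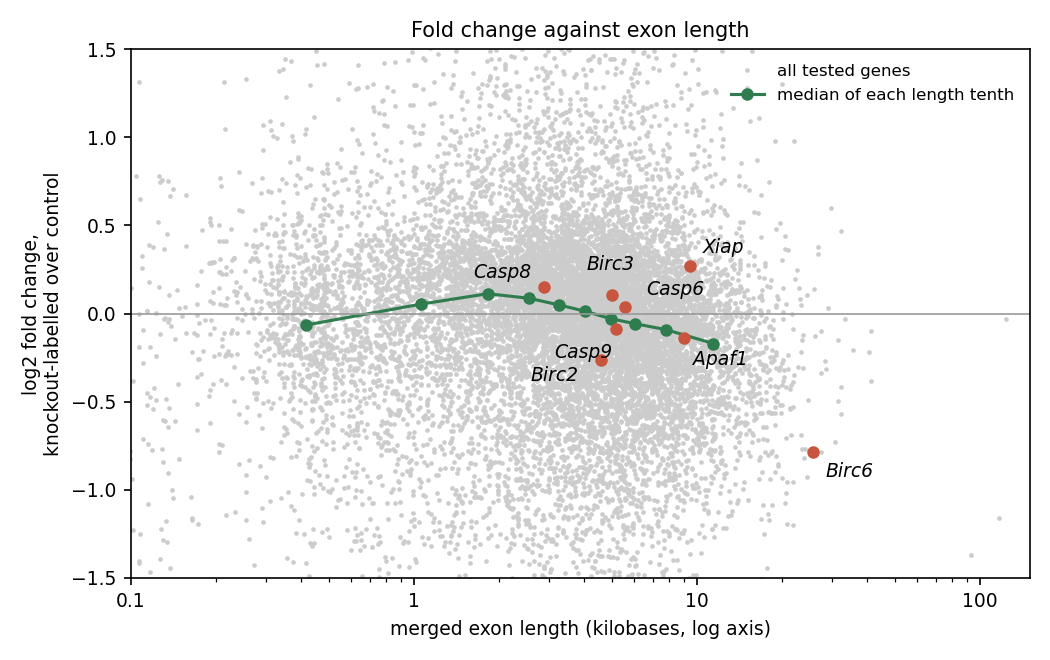
Log2 fold change of libraries labelled knockout over control (vertical axis) against merged exon length in kilobases (log axis) for tested genes (grey), the median of each of 10 length groups at its median length (green) and the 8 genes (red). The green medians rise from -0.066 in the shortest group to 0.11 in the third and then decline to -0.17 in the longest, Birc6 lies at the lower right, and 1364 genes lie outside the plotted range.

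Xiap, on chromosome X (42059679 to 42109656, plus strand), has 9469 bases of merged exons, slightly more than Apaf1 (9028), and had a positive fold change. It was at 14.0 and 16.8 CPM in the controls and 16.9 and 20.1 CPM in libraries 3 and 4. The groups did not overlap, but the highest control and the lowest library labelled knockout nearly met. Its log2 fold change was 0.27 (SE 0.28, 95% interval -0.41 to 0.95, edgeR adjusted p = 0.863), while the median of genes in its length group was -0.17. With the length trend of each library removed, its log2 fold change was 0.43 (SE 0.26, edgeR unadjusted p = 0.151, adjusted p = 0.70). The length-scaled level of Xiap was 0.251 and 0.249 of that of Casp9, a caspase its product inhibits, in the controls, and 0.303 and 0.335 in libraries 3 and 4.

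Birc2, which encodes cIAP1, was at 81.6 and 98.6 CPM in the controls and 68.3 and 81.9 CPM in libraries 3 and 4. Library 4 was level with control 1, so the groups overlapped. This gave a log2 fold change of -0.26 (SE 0.19, 95% interval -0.71 to 0.19, edgeR adjusted p = 0.748). Birc3, which encodes cIAP2 and is itself a target of the transcription factor NF-kB, varied more within the groups than any other member. It was at 51.4 and 93.7 CPM in the controls and 65.4 and 90.8 CPM in libraries 3 and 4, a difference between controls of 0.87 on the log2 scale. The log2 fold change between groups was 0.11 (SE 0.32, 95% interval -0.66 to 0.88, edgeR adjusted p = 0.978), and its sign turned to -0.26 without control 1 and to -0.17 without library 4. The length-scaled ratio of Birc2 to Birc3 was 1.74 in control 1, 1.15 in control 2, 1.14 in library 3 and 0.987 in library 4. The median over the 4 IAP genes was -0.08, with Birc6 and Xiap at its ends (-0.79 and 0.27).

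All 8 members differed in the same direction from control 1 to control 2 as from library 3 to library 4. This pairing follows the numbers in the column headers, which the labels do not tie to a shared animal or batch. The opposite pairing would reverse each comparison. For 7 of the 8 both libraries 2 and 4 were the higher. For Casp8 both were the lower, with a difference between controls of only -0.036 on the log2 scale. The median of all genes in each member's length group was higher in control 2 than in control 1. From library 3 to library 4 this median was -0.060 on the log2 scale in the length group of Birc6 and Xiap. It was 0 in that of Apaf1 and positive in those of the other members. The share of all genes with libraries 2 and 4 both higher was not counted. Over 7700 genes with a mean of at least 10 CPM, 59.7% had the same sign in both differences, and the differences correlated across genes with r = 0.25 (Spearman 0.23), where genes are not independent replicates.

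Per kilobase of merged exon, the order of the 8 genes was led by Casp8 at 64.7 ± 6.38 CPM per kilobase (SD over 4 libraries), which exceeded 93.6% of tested genes. Birc2 (18.03 ± 2.70), Birc3 (15.03 ± 4.07), Casp6 (10.9 ± 0.776), Birc6 (8.27 ± 2.90) and Casp9 (6.31 ± 0.581) followed, and each of these neighbours overlapped the next over the libraries. Xiap (1.79 ± 0.266) and Apaf1 (1.47 ± 0.246) were the lowest and overlapped with each other, at percentiles 40.2 and 36.5 of tested genes. Gaps without overlap thus lay below Casp8 and between Casp9 and Xiap. Scaled by the longest annotated transcript in place of all merged exons, the levels were higher for each gene, Birc3 (25.9) moved above Birc2 (24.8), and the other ranks were the same.

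**Figure D4:**
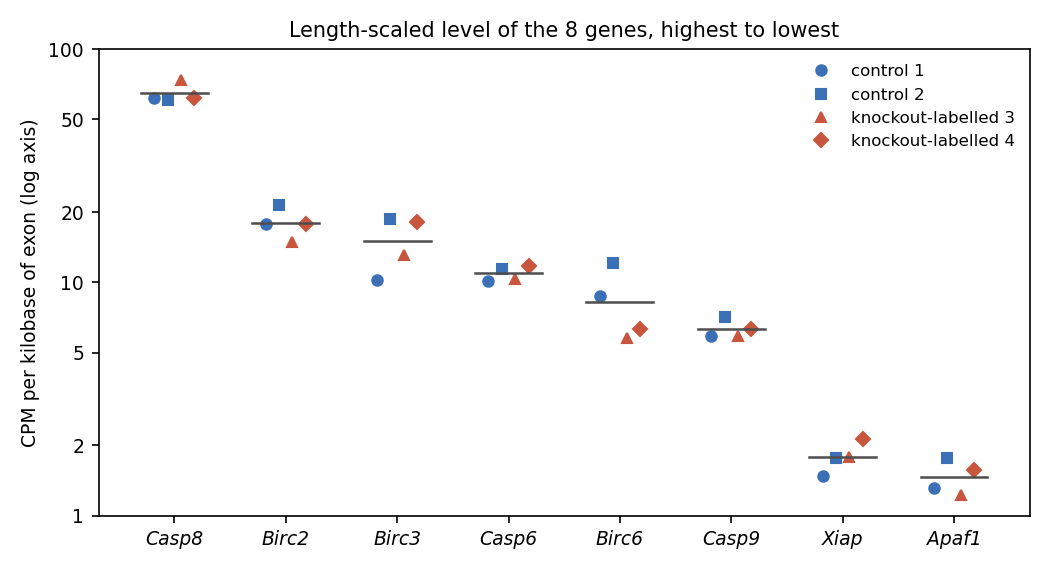
CPM per kilobase of merged exon (log axis) of the 8 genes in each library, with lines at the mean over 4 libraries, ordered from highest to lowest. Casp8 stands alone at 60.5 to 74.2, and Xiap and Apaf1 lie at 1.23 to 2.12, below every value of the other 6 genes.

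The wider apoptosis machinery was read from 46 further genes, of which 42 were tested. Neither edgeR nor DESeq2 called any (0 of 42), while an unadjusted edgeR p under 0.05 was reached by 2, Cflar and Naip5, both lower. These counts of 0 higher and 2 lower of 42 stand beside 4.48% and 5.17% of all tested genes, so the share of lower genes was near the background. The 42 genes had a median log2 fold change of 0.00065 beside -0.01 over all tested genes, with 21 positive and 21 negative. Casp12, Casp14 and Birc7 had 0 counts in every library, and Naip1 was under the filter.

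Among the partners of caspase-8, Cflar was lower by the unadjusted test alone. Cflar encodes c-FLIP, a catalytically dead relative of caspase-8 that limits its activation. It was at 81.3 and 98.9 CPM in the controls and 68.0 and 56.1 CPM in libraries 3 and 4, and the groups did not overlap. Cflar had a log2 fold change of -0.54 (SE 0.19, edgeR unadjusted p = 0.030, adjusted p = 0.454, DESeq2 adjusted p = 0.256). The unadjusted pass was lost with the length trend removed (-0.34, edgeR unadjusted p = 0.089), without control 2 (-0.39, edgeR unadjusted p = 0.161) and without library 4 (-0.43, edgeR unadjusted p = 0.10). With Casp8 nearly level, the length-scaled ratio of Casp8 to Cflar was 9.66 and 7.75 in the controls and 13.8 and 14.0 in libraries 3 and 4. Cflar has 12669 exon bases and Casp8 2893, and scaling by length does not remove the length trend of the fold changes. The part of that trend in the ratio was not tested. Fadd, the adaptor that recruits caspase-8, was at 22.2 and 23.7 against 28.0 and 20.8 CPM (0.09, SE 0.27), and the kinase gene Ripk1 was at 9.47 and 11.9 against 11.5 and 10.05 CPM (0.02, SE 0.32). Traf2, which tethers the cellular IAP proteins to receptors, was at 171.7 and 261.4 against 162.8 and 223.8 CPM (-0.16, SE 0.25). Its controls differed from each other more than the groups did, and of the 14 genes in this list 10 were positive and 4 negative.

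Of the other caspase genes listed, 3 were tested, with 1 positive and 2 negative fold changes and a median of -0.14. Casp2, an initiator linked to genome stress, had 91.5 and 118.8 CPM in the controls and 82.4 and 86.6 CPM in libraries 3 and 4, with both of the latter below the controls (-0.31, SE 0.18, edgeR adjusted p = 0.668). Casp1, the inflammasome caspase, was at 69.4 and 71.4 CPM in the controls and 71.1 and 87.3 CPM in libraries 3 and 4, where the groups overlapped and library 4 alone was high (0.17, SE 0.18, edgeR adjusted p = 0.865).

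**Figure D5:**
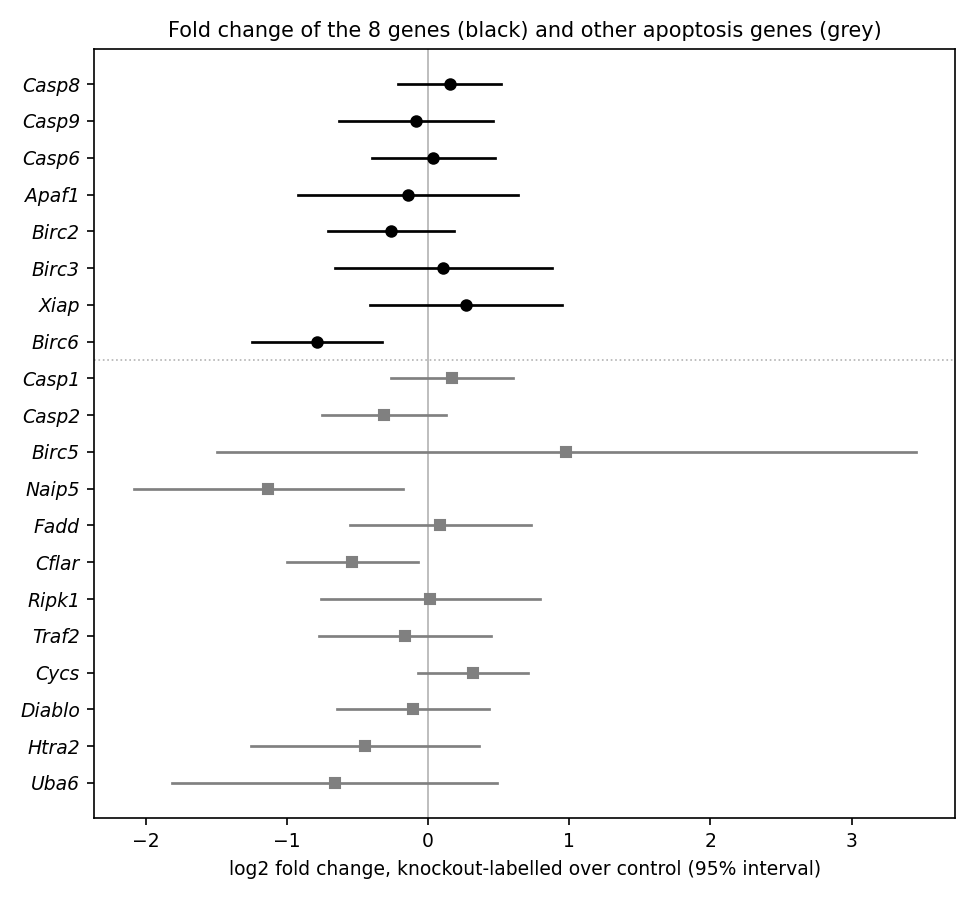
Log2 fold change with its 95% interval (horizontal axis) for the 8 genes (black) and the other named apoptosis genes (grey). The intervals of Birc6, Naip5 and Cflar lie to one side of 0, and 0 of the 20 genes pass the adjusted threshold of edgeR.

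Genes around the IAP proteins gave no call either. Naip5, a sensor of bacterial flagellin that carries the repeat domain of the IAP family, was at 15.7 and 25.1 CPM in the controls and 11.6 and 7.035 CPM in libraries 3 and 4 (log2 fold change -1.13, SE 0.39, edgeR unadjusted p = 0.027, adjusted p = 0.438, DESeq2 adjusted p = 0.115). Its unadjusted pass was lost without control 2 (-0.75, edgeR unadjusted p = 0.164), without library 4 (-0.84, edgeR unadjusted p = 0.093) and with a replicate block (edgeR unadjusted p = 0.052). Naip genes are near copies of each other, so reads may be split between them. Birc5, the survivin gene of dividing cells, was at 1.397 and 1.27 CPM in the controls, 0.535 CPM in library 3 and 4.72 CPM in library 4, which alone was high. Uba6, whose product loads ubiquitin onto BIRC6, had 24.6 and 32.0 CPM in the controls and 26.2 and 9.64 CPM in libraries 3 and 4 (-0.66, SE 0.48, edgeR adjusted p = 0.755), with library 4 alone low. Without library 4 the Uba6 value was -0.14, and without library 3 it was -1.57 (edgeR unadjusted p = 0.00455, adjusted p = 0.342).

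The proteins that leave mitochondria during apoptosis were also read at the transcript level. Cycs, the cytochrome c gene, was at 90.5 and 106.3 CPM in the controls and 117.0 and 128.3 CPM in libraries 3 and 4, without overlap (0.32, SE 0.16, edgeR adjusted p = 0.605). The IAP antagonist genes Diablo (-0.11, SE 0.22) and Htra2 (-0.45, SE 0.33) had groups that overlapped. Diablo was at 60.1 and 66.9 against 48.7 and 69.3 CPM, and Htra2 at 18.1 and 24.7 against 19.1 and 12.4 CPM. Of the 7 genes in this list 3 were positive and 4 negative.

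The genes whose levels over the 4 libraries were most like those of Birc6, by the root mean square difference of centred log2 CPM, were Sfn (0.026), Ino80d (0.036) and Ankrd13c (0.039). Profiles over only 4 libraries have few values to match, and the number of genes this close was not counted. Every other member had a nearest gene closer than Birc6 did, and for Casp6 the nearest gene, Fosl2, was at 0.0066. Sfn was at 16.3 and 22.4 CPM in the controls and 11.1 and 11.6 CPM in libraries 3 and 4. Its exons span 1613 bases against 25772 for Birc6. Those of Ino80d span 17713 bases and those of Ankrd13c 11511, both in the longest group by exon length.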

How the data were processed

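RNA of CD49a+ ILC1s from 2 control and 2 knockout-labelled libraries was made into low-input SMARTer libraries for NovaSeq sequencing (per the labels' protocols), and the deposited values are raw read counts per gene. Per the submitters' processing notes, bcl2fastq, STAR (2.5.1a1 as written there), Subread, featureCounts (1.4.6-p52 as written there) and DESeq2 were used with mm10; the sources used here do not give annotation, strand setting or each tool's role, so antisense reads cannot be separated. Of the table's lines, 276 repeated an identifier with identical counts and were dropped. Lengths and positions came from GENCODE M21.

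Genes passing filterByExpr (14863) were tested with edgeR 4.0.16 (robust quasi-likelihood, TMM factors, genotype only, 2 residual degrees of freedom, two-sided, Benjamini-Hochberg, threshold 0.05) in R 4.3.3. The fit was also run on simulated counts, with independent libraries, no length trend and changes larger than that of any member. That run does not check the fit under the length trend found here. Alternatives included DESeq2 1.42.0, limma 3.58.1 voom, other factors and filters, thinning, removal of a length trend per library (loess offsets), leaving out each library, and a block added after the data were seen. The members and lists were chosen with earlier results of these data known. Named genes were the members, 11 preset partners, any other list gene with an unadjusted edgeR p or DESeq2 adjusted p under 0.05, and the 3 protein-coding genes of at least 10 CPM closest to Birc6; Fosl2, the genes sharing sequence with members and those at 0 were named after their values were seen. A few further genes covered by this rule are left out here.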

Additional observations from a re-analysis of the deposited data

How the results depend on the processing

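Of the 8 genes, Birc2, Birc6 and Xiap kept their sign under all 14 alternatives. edgeR called Birc6 in no setting with a count filter; it passed without a filter (-0.80, adjusted p = 0.00121) and with DESeq2 (-0.77, adjusted p = 0.0345), so that 1 member was called lower in each, against 0 in the fit reported. Its adjusted p ranged from 0.00121 to 0.79. Leaving out a library gave ranges of -1.004 to -0.53 for Birc6, -0.42 to -0.12 for Birc2, 0.11 to 0.41 for Xiap, -0.083 to 0.13 for Casp6, -0.0037 to 0.25 for Casp8, -0.22 to 0.064 for Casp9, -0.35 to 0.096 for Apaf1 and -0.26 to 0.61 for Birc3, the last 5 changing sign. The size for Birc2 and Xiap thus moved by over 1.5 times, with the ends of their ranges without library 4 and without control 2. With the length trend removed, Apaf1 was at 0.019 and Xiap at 0.43. The cause of these changes was not tested, beyond the fewer libraries or other scaling of each alternative.

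Among the partner genes, 6 changed sign when a library was left out, with ranges of -0.014 to 0.29 for Casp1, -1.34 to 1.80 for Birc5, -0.16 to 0.26 for Fadd, -0.41 to 0.11 for Diablo, -0.14 to 0.19 for Ripk1 and -0.44 to 0.18 for Traf2. The others kept their sign, with ranges of -0.49 to -0.11 for Casp2, -0.81 to -0.19 for Htra2, -1.57 to -0.14 for Uba6, -0.70 to -0.39 for Cflar, -1.55 to -0.75 for Naip5 and 0.21 to 0.44 for Cycs. Ripk1 was also at -0.0014 without a filter and -0.0094 with the stricter one.

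Over all genes, 21 were called higher and 2 lower. The counts were 299 and 264 without a filter, 40 and 9 with at least 50 counts in 2 libraries, and 278 and 203 with DESeq2. They were 0 and 0 with the length trend removed, where 754 and 639 had an unadjusted p under 0.05. Leaving out a library gave 0 to 18 higher and 0 to 2 lower. The partner list had 0 calls in every setting.

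Levels per kilobase with the longest transcript were 72.4 for Casp8, 24.8 for Birc2, 25.9 for Birc3, 15.6 for Casp6, 13.5 for Birc6, 8.41 for Casp9, 2.48 for Xiap and 2.02 for Apaf1, higher because that length is shorter.

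The groups share no replicate number in the sample titles. The table's column headers number the libraries 1 and 2 within each genotype, and a replicate block on that number, added after the data were seen, put Birc6 at -0.77 (edgeR adjusted p = 0.255). It gave 0 genes called higher and 0 lower, with 857 and 852 at an unadjusted p under 0.05, and changed no sign among the 20 named genes. Nothing in the labels says that the number marks a shared animal or batch.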
